A study of Mus musculus with 6 samples.

Results

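The genes described here encode the vacuolar H+-ATPase (V-ATPase), the proton pump of lysosomes, and membrane proteins of the lysosome, and they were measured by RNA-seq in O4-purified cells of WT and Npc1-/- mice. Members were the genes whose symbol starts with Atp6v0 or Atp6v1, which gave 25, and 16 further genes named one by one, so that 41 of the 55492 genes in the deposited tables were included. The cells were taken from whole brains at postnatal day 16 (P16) with magnetic microbeads that bind O4, a sulfatide antigen on the surface of late oligodendrocyte progenitors and immature oligodendrocytes. There were 3 mice of each genotype, littermates from crosses of heterozygous BALB/cJ and C57BL6/J parents, and neither group had been treated. Npc1-/- mice carry the nih allele of Npc1 in every cell of the body, so the comparison is not limited to the oligodendrocyte lineage. NPC1 is itself a protein of the lysosomal membrane, which passes cholesterol out of the lysosome.

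The V-ATPase is a rotary pump with a cytosolic V1 sector that splits ATP and a membrane-bound V0 sector that carries the protons. The acid it makes in the lumen drives the hydrolases, and the proton gradient powers exchangers and transporters in the same membrane. Many lysosomal genes carry E-box sequences near their start that are bound by the transcription factors TFEB, TFE3 and MITF, a group known as the CLEAR network. Myelin-forming cells have a high traffic of membrane lipid through late endosomes and lysosomes, and myelin proteins are stored there before delivery to the surface.

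The promoter letters are shown first because the E-box core is the sequence that TFEB and its relatives are known to bind. RefSeq promoter windows of GRCm38.p6, which run from 250 bases before to 50 bases after a start site, were found for 32 members and searched on both strands for the letters CACGTG. This core was present in 8 of the 32 members, or 25.0%, and all 8 were among the 26 tested members with a window. Of the 11101 tested genes that have a window, 11.45% held it. Counted by window, it was in 8 of the 38 windows of members, or 21.05%, against 7.15% of all 32851 windows. In 6 of the 8, all but Lamp1 and Atp6v0b, at least 1 core was part of the longer palindrome TCACGTGA, which overlaps it and was found in 2.09% of the tested genes with a window and 0.97% of all windows. The stretches that hold the cores are printed 5′ to 3′ on the strand of the gene, with the core in capitals and 10 bases on either side.
Lamp1 (chr8:13159090-13159161, forward strand): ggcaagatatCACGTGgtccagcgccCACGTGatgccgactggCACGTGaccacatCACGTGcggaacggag
Mcoln1 (chr8:3500438-3500489, forward strand): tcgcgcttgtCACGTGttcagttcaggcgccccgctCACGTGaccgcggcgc
Cln3 (chr7:126583342-126583395, reverse strand): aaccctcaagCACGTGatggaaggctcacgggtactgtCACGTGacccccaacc
Clcn7 (chr17:25133366-25133413, forward strand): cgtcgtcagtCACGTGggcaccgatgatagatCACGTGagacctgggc
Atp6v0b (chr4:117887332-117887375, reverse strand): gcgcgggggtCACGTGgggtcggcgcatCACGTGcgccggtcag
Atp6v0d1 (chr8:105566052-105566077, reverse strand): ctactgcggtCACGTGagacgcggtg
Atp6v0e (chr17:26676389-26676414, forward strand): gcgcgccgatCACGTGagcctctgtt
Atp6v1a (chr16:44139375-44139400, reverse strand): ttttttaaatCACGTGataggcttaa
Lamp1 had 4 cores in a row between 61 and 15 bases before its start, and the cores of Atp6v0d1 and Atp6v0e lay within 3 bases of the start. Among the tested members, the median log2 fold change was 0.24 for the 8 with a core and 0.18 for the 18 with a window and no core. Among all tested genes with a window it was 0.025 with a core and -0.002 without. These medians are a description with no test. A match of letters is no record of binding, and no window was held for the remaining 9 members.

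**Figure D1:**
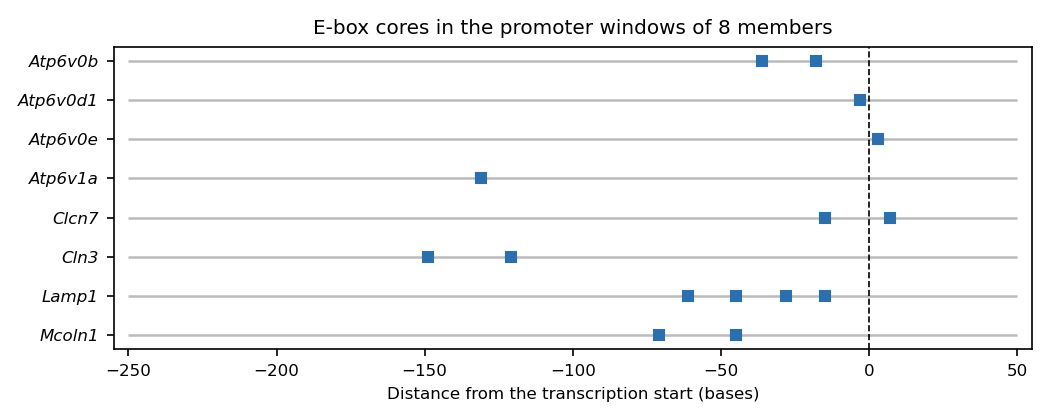
Positions of the E-box core in the promoter windows of the 8 members that have one. The horizontal axis is the distance in bases from the transcription start (dashed line), grey lines are the windows and squares are the first base of each core. The 4 cores of Lamp1 lie between -61 and -15, and the single core of Atp6v1a lies at -131.

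Expression is given as scaled TPM, which is the deposited TPM (transcript abundance per length, set to the same total in each library) divided by a size factor for each library. Size factors ranged from 1.04 to 1.295 over the WT libraries and from 0.73 to 1.10 over the Npc1-/- libraries, and Mbp alone took 18.8% to 22.2% of all TPM in WT and 20.2% to 26.1% in Npc1-/- libraries. From the steps between low FPKM values, each library was estimated to hold 40500000 to 50250000 fragments, and 79.7% to 82.5% of those values came within 0.15 of being whole. Npc1 measured 53.3, 50.4 and 45.5 TPM in the WT and 4.10, 4.42 and 3.16 TPM in the Npc1-/- libraries, a log2 fold change of -3.17 (adjusted p = 0.0004, limma), so the genotype labels match the level of Npc1.

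Of the 41 members, 33 had a mean of at least 0.5 TPM and were tested. As TPM takes transcript length into account, levels may be set side by side between genes. On the scaled TPM scale Lamp1 was the most abundant member in WT cells, with 493 ± 25.7 (SD, n = 3), followed by Atp6v0c with 224 ± 7.18. Atp6v1g1 (120.0 ± 10.9) and Atp6v0b (119.9 ± 2.93) came next and did not differ beyond their spread. At the other end, 7 tested members averaged below 10 scaled TPM in WT, among them Tpcn2 (1.56 ± 0.353), Slc17a5 (4.35 ± 0.457) and Mfsd8 (4.51 ± 1.03). The tested subunits of the pump were present at averages of 20.7 to 224 scaled TPM, whereas the transporters and the ion channels other than Mcoln1 averaged below 16.

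**Figure D2:**
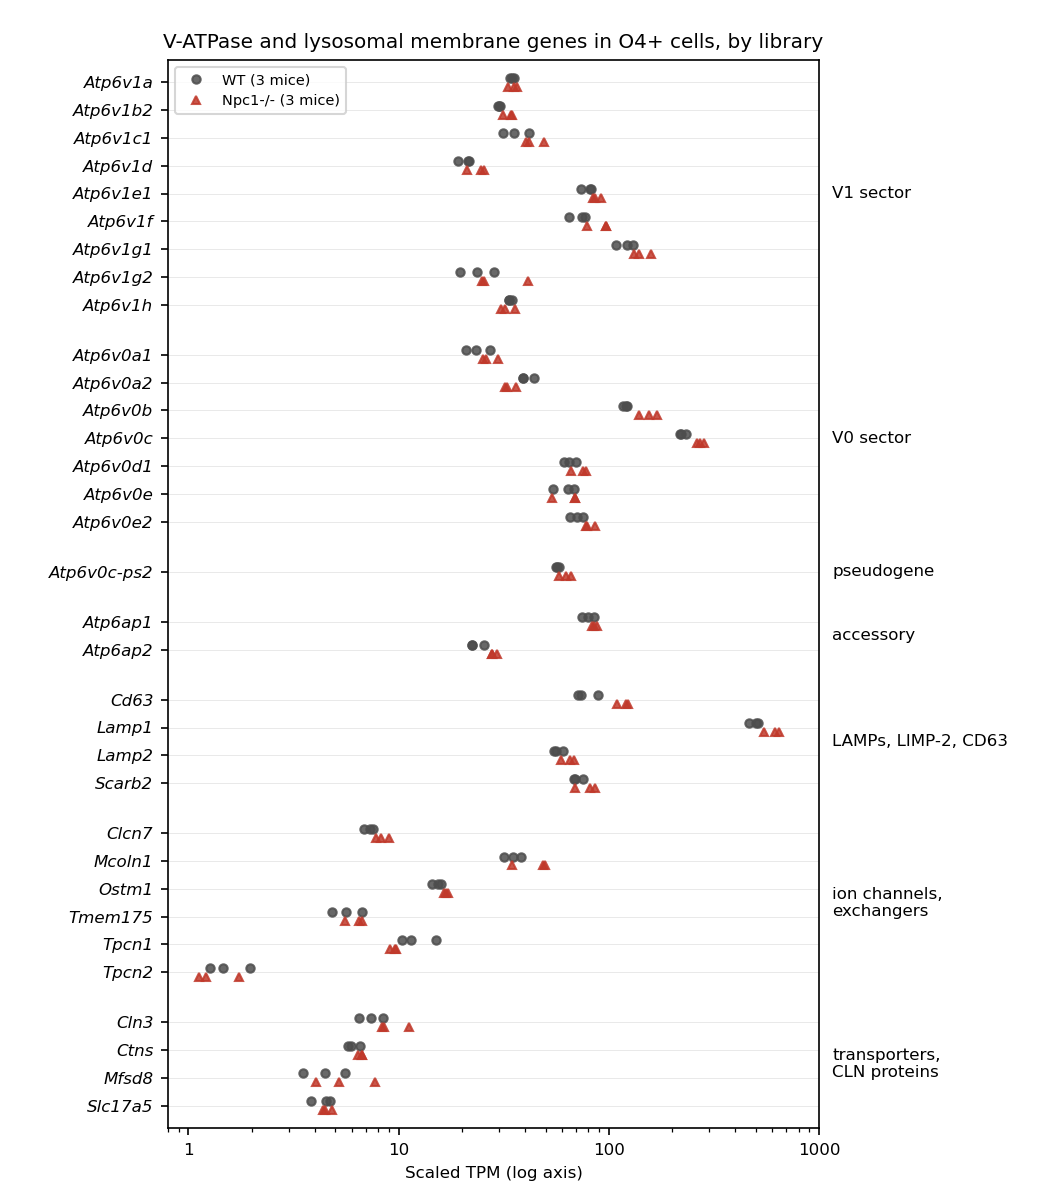
Scaled TPM (horizontal log axis) of the 33 tested members in every library, grouped by role. Grey circles are the 3 WT and red triangles the 3 Npc1-/- libraries. Lamp1 is highest, between 463 and 645.5, and Tpcn2 lowest, between 1.13 and 1.96. Cd63, Atp6v0b and Atp6v0c show a gap between the genotypes, with all 3 Npc1-/- libraries above all 3 WT libraries.

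No member passed the test for a genotype difference. In limma, with p adjusted over all 15245 tested genes and a log2 fold change of at least 0.1 required, 0 of 33 members were called in either direction. The background was low too, as 0.4% of all tested genes were called higher and 0.413% lower. At an unadjusted p below 0.05, 6 members were higher (10.6% of all tested genes) and 2 were lower (11.6%). The smallest adjusted p was 0.0557, that of Cd63.

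Although single members did not pass, most leaned the same way once the libraries were scaled. The log2 fold change was above 0 in 29 of 33 members by size factors, against 51% of all tested genes, in 25 by quantile normalization, and in only 1 with TPM as deposited. The median of all tested genes was itself -0.33 with TPM as deposited and 0.01 by size factors. Read against that median, 29 members lay above it by size factors, 27 with TPM as deposited and 25 by quantile normalization. The median log2 fold change of the members was 0.17 by size factors and 0.16 above the median of all genes, whereas with TPM as deposited it was -0.20 and lay 0.12 above that of all genes. The 2 genotypes did not overlap in 12 members that were higher in Npc1-/- (13.3% of all tested genes) and in 2 that were lower (14.2%). With TPM as deposited these counts were 0 and 3, against 2.58% and 25.6% of all tested genes. The direction of the members as a group is thus a statement relative to the other genes in the same libraries, and it has no test.

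**Figure D3:**
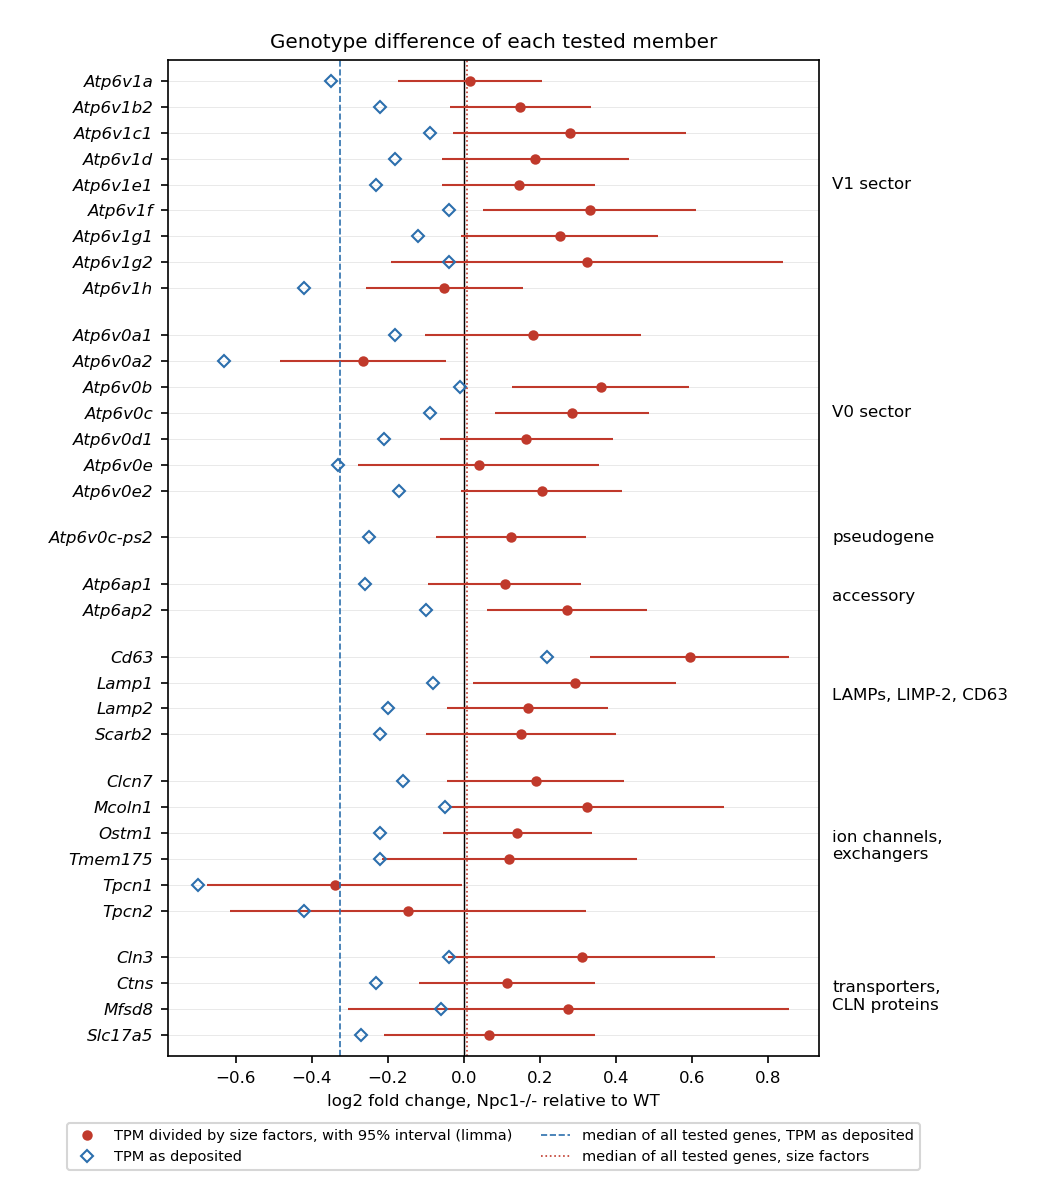
Log2 fold change (horizontal axis, Npc1-/- relative to WT) of each tested member. Red points with bars are estimates after division by size factors with their 95% limma intervals, and open blue diamonds are the estimates with TPM as deposited. The dashed and dotted lines are the medians of all tested genes under each scaling, -0.33 and 0.01. By size factors 29 points lie above 0, whereas with TPM as deposited 1 does (Cd63) and 27 lie above the dashed line.

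Transcript length moved with the genotype difference. Over the 33 members, Spearman's rho between log2 fold change and the length of the longest annotated transcript was -0.43, and over all tested genes it was -0.27, so that shorter genes tended to have the higher log2 fold changes. Genes are not independent replicates, and these values are a description. When a smooth curve on length was removed from each library, the median of the members was 0.15, against 0.17 without it. The members with the shortest transcripts moved more, with log2 fold changes going from 0.12 to -0.19 for Atp6v0c-ps2, from 0.33 to 0.12 for Atp6v1f, from 0.36 to 0.19 for Atp6v0b and from 0.25 to 0.11 for Atp6v1g1, whereas Cd63 stayed at 0.59.

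Markers of cells other than the oligodendrocyte lineage were present, and those called for genotype were microglia and macrophage or neuron markers. The lineage markers were by far the most abundant, with summed scaled TPM of 178400 to 251100 in WT and 225700 to 442200 in Npc1-/- libraries, and 13 of 18 had a log2 fold change above 0 by size factors (median 0.25, 0 called) but 5 with TPM as deposited and 4 by quantile normalization. Microglia and macrophage markers summed to 273 to 427 in WT and 135 to 252 in Npc1-/- libraries, and 13 of 14 were lower by size factors, 3 of them called (median -0.89). Endothelial and pericyte markers were lower in 9 of 9, with 0 called (median -0.82, sums of 772 to 1139 against 517 to 607). Of the 9 astrocyte markers 7 were lower and 0 called (median -0.37), with overlapping sums of 1351 to 1754 against 1420 to 3147. The 2 that were higher were Gfap (1.01 ± 0.29, without overlap) and S100b (0.90 ± 0.33, with overlap). All 5 tested choroid plexus and ependymal markers were lower with 0 called (median -0.42), with overlapping sums of 3017 to 5484 against 2457 to 5050. Neuron markers were higher in 10 of 12 by size factors but in 4 with TPM as deposited, with Nefl and Nefm called (median 0.19, sums of 185 to 223 against 225 to 278). No marker was listed at 0 in all libraries. The share of these cells in the members' differences was not tested, and in bulk RNA fewer cells of a type and less RNA per cell cannot be told apart.

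**Figure D4:**
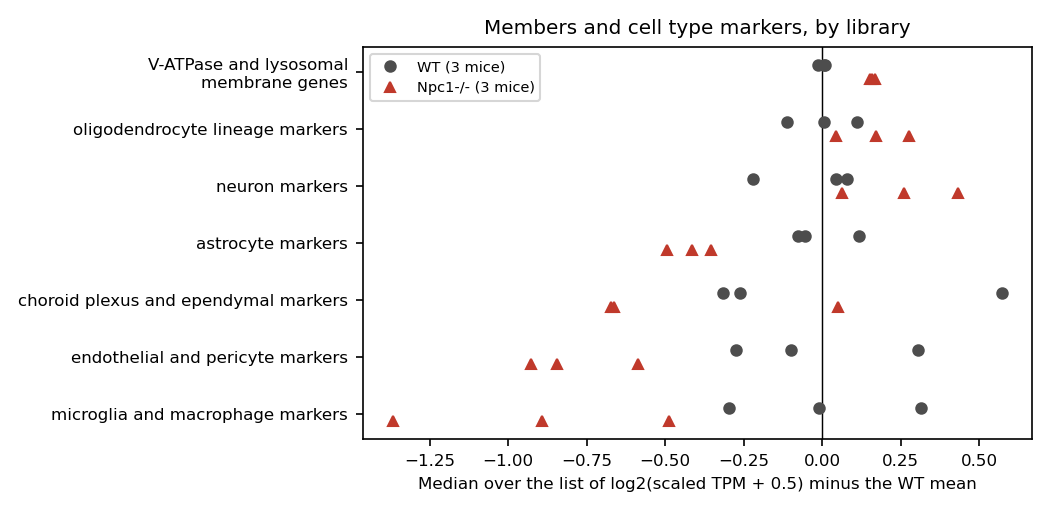
Median over each gene list of log2(scaled TPM + 0.5) minus the WT mean (horizontal axis), by library. Grey circles are WT and red triangles Npc1-/- libraries. The tested members sit at 0.154 to 0.168 in the Npc1-/- libraries, a narrow range, whereas microglia and macrophage markers spread from -1.37 to -0.489. With TPM as deposited the members' median lies below 0.

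In the V1 sector, 9 of 13 genes were tested, 0 were called, and 8 had a log2 fold change above 0 by size factors (median 0.19) but 0 with TPM as deposited. Atp6v1f encodes subunit F of the central rotor and showed the largest difference of the V1 genes whose groups did not overlap. The gene lies at chr6:29467718-29470512 of GRCm38 on the forward strand, and its longest transcript has 806 bases. Its scaled TPM ran at 64.5, 76.7 and 74.4 in the WT and at 78.4, 97.1 and 96.6 in the Npc1-/- libraries. The lowest Npc1-/- library stood only just above the highest WT library, and the log2 fold change was 0.33 ± 0.12 (SE, adjusted p = 0.16, limma). It was 0.12 with the length curve (adjusted p = 0.496, limma) and 0.21 by quantile normalization. With a replicate block, meaning replicate number added to the fit, Atp6v1f was among 2011 genes called (adjusted p = 0.031, limma). The labels do not establish that pairing. Atp6v1d, the other rotor subunit tested, was at 0.19 ± 0.10, with overlapping groups.

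The ATP-splitting head of V1 alternates subunits A and B. Atp6v1a (subunit A) was close to equal in the genotypes, with 34.7 ± 0.731 in WT and 35.1 ± 1.86 scaled TPM in Npc1-/- cells and a log2 fold change of 0.02 ± 0.08. Atp6v1b2, the brain form of subunit B, measured 30.2, 30.0 and 29.8 scaled TPM in WT and 34.2, 31.4 and 34.5 in Npc1-/- libraries, which did not overlap (log2 fold change 0.15 ± 0.08, adjusted p = 0.32, limma). Atp6v1h, the regulatory subunit H, was the 1 V1 gene below 0 by size factors, at -0.05 ± 0.09.

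The peripheral stalks join head and membrane and are built from subunits C, E and G. Atp6v1c1 was at 0.28 ± 0.13 with overlapping groups, and Atp6v1e1 at 0.14 ± 0.09 with groups that did not overlap (adjusted p of 0.26 and 0.38, limma). By quantile normalization Atp6v1e1 was at 0.03, and without WT replicate 2 Atp6v1c1 was at 0.18. Subunit G has a ubiquitous form, Atp6v1g1, and a form known from neurons, Atp6v1g2. Atp6v1g1 measured 108, 122 and 129.7 scaled TPM in WT and 132.5, 139 and 158 in Npc1-/- libraries, without overlap (log2 fold change 0.25 ± 0.11, adjusted p = 0.23, limma), which became 0.11 with the length curve and 0.10 by quantile normalization. Atp6v1g2 measured 19.6, 23.5 and 28.4 in WT and 25.4, 24.9 and 41.1 scaled TPM in Npc1-/- libraries, where replicate 3 alone was high (0.32 ± 0.22, adjusted p = 0.44, limma). Without that library its log2 fold change was 0.09. Part of the exons of Atp6v1g2, 144 bases, overlaps Nfkbil1 on the other strand, and reads from the pair cannot be told apart unless strand was used.

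In the V0 sector, 7 of 9 genes were tested, 0 were called, and 6 had a log2 fold change above 0 by size factors (median 0.18) but 0 with TPM as deposited. The rotating ring is made of subunits c (Atp6v0c) and c″ (Atp6v0b), and by size factors both ring genes were higher in every Npc1-/- library than in any WT library. Atp6v0b, at chr4:117884326-117887333 on the reverse strand, measured 117, 121 and 122 scaled TPM in WT and 154.5, 170.1 and 139 in Npc1-/- libraries. Its log2 fold change of 0.36 ± 0.10 missed the threshold (adjusted p = 0.096, limma), and 243 bases of its exons overlap the gene model Gm12841 on the other strand. With the length curve it was 0.19 (adjusted p = 0.329, limma) and by quantile normalization 0.22. With the replicate block Atp6v0b was called (adjusted p = 0.0427, limma). Atp6v0c, at chr17:24163866-24169702 on the reverse strand, measured 221, 232 and 219 in WT and 272, 282 and 264 scaled TPM in Npc1-/- libraries (0.28 ± 0.09, adjusted p = 0.11, limma). By quantile normalization Atp6v0c had a log2 fold change of 0.06 (adjusted p = 0.813, limma). It was called with the replicate block (adjusted p = 0.0364, limma).

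A processed pseudogene shares almost all of its own short sequence with Atp6v0c, and the split of reads between them is uncertain. Atp6v0c-ps2, at chr6:37806086-37806550, has 465 bases, of which 464 are identical to an Atp6v0c transcript. It was listed at 57.9, 57.0 and 55.9 scaled TPM in WT and 62.9, 66.0 and 57.7 in Npc1-/- libraries, which overlapped (0.12 ± 0.08). It held 20.3% ± 0.527 of the summed TPM of the pair in WT and 18.6% ± 0.555 in Npc1-/- libraries. Summed, the pair measured 279, 289 and 274.5 scaled TPM in WT and 335, 348 and 322 in Npc1-/- libraries, a log2 difference of 0.25, so the sum too was without overlap.

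Subunit a holds the proton path through the membrane and has alternative forms that direct the pump to different organelles. Atp6v0a2, a form known from the Golgi and endosomes, was the 1 V0 gene with a log2 fold change below 0 by size factors. It measured 38.9, 44.0 and 39.1 scaled TPM in WT and 36.3, 32.1 and 32.8 in Npc1-/- libraries, without overlap, and the log2 fold change was -0.27 ± 0.09 (adjusted p = 0.15, limma). Atp6v0a1, the form known from synapses and lysosomes, measured 27.1, 23.3 and 20.97 in WT and 29.9, 25.2 and 26.0 scaled TPM in Npc1-/- libraries, which overlapped (0.18 ± 0.12). Atp6v0a2 lies at chr5:124628576-124724455 on the forward strand, and 663 bases of its exons overlap 4930404A12Rik on the other strand.

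A share within a library does not depend on the size factor. Of the summed TPM of Atp6v0a1 and Atp6v0a2, Atp6v0a2 made up 58.9%, 65.4% and 65.1% in WT and 54.9%, 56.1% and 55.8% in Npc1-/- libraries. The means of 63.1% ± 3.65 and 55.6% ± 0.644 (SD, n = 3) differed by -7.54 percentage points, without overlap (two-sided exact permutation p = 0.1, adjusted 0.3 over the 3 shares tested). This p is the smallest that 3 against 3 samples can give, so the design cannot reach the threshold. With Tcirg1, which encodes a further form of subunit a and is no member, added to the sum, the share was 51.7% ± 3.56 and 45.3% ± 1.74 (p = 0.1, exact permutation test). This sum was chosen after the data had been seen.

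The other paralog pairs showed no such gap. Subunit e is a small membrane protein with the forms Atp6v0e and Atp6v0e2. Atp6v0e measured 63.6, 68.5 and 54.4 scaled TPM in WT and 69.1, 68.9 and 53.9 in Npc1-/- libraries (0.04 ± 0.13), with wholly overlapping groups. Atp6v0e2 measured 65.6, 75.2 and 70.3 in WT and 79.1, 86.1 and 78.3 scaled TPM in Npc1-/- libraries, without overlap (0.20 ± 0.09, adjusted p = 0.24, limma, and 0.09 by quantile normalization). The share of Atp6v0e2 in the pair was 53.2% ± 2.90 in WT and 56.0% ± 2.95 in Npc1-/- libraries (difference 2.86 points, exact permutation p = 0.3, adjusted 0.45). For subunit G, Atp6v1g2 held 16.5% ± 1.32 and 17.3% ± 2.90 (difference 0.84 points, exact permutation p = 0.9), and the difference became -0.82 points without Npc1-/- replicate 3. Subunit d, which couples ring and stalk, came from Atp6v0d1 alone (65.2 ± 4.10 and 73.2 ± 6.06 scaled TPM, log2 fold change 0.16 ± 0.10).

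**Figure D5:**
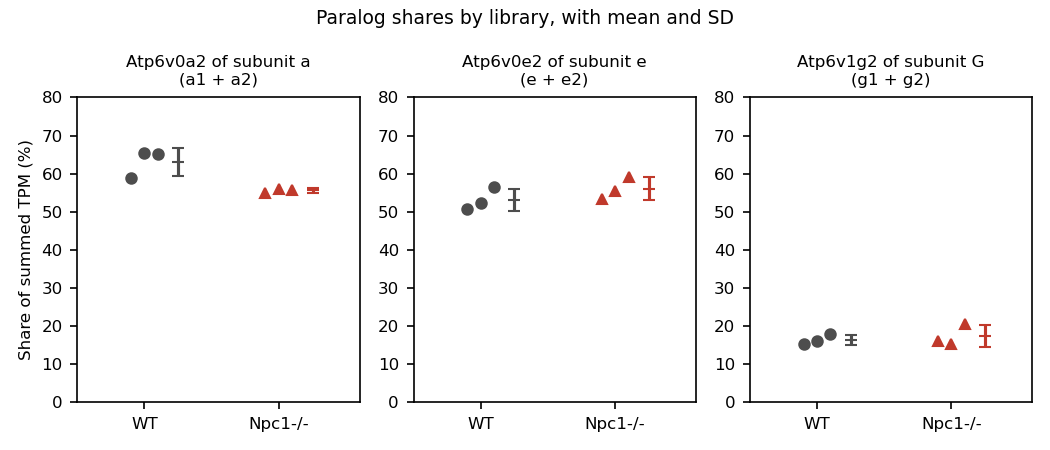
Share (vertical axis, percent) of 1 paralog in the summed TPM of its subunit, by library, with the mean and SD beside the points. Grey circles are WT and red triangles Npc1-/- libraries. For subunit a the WT libraries lie between 58.9% and 65.4% and the Npc1-/- libraries between 54.9% and 56.1%, whereas the libraries of subunits e and G overlap.

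Both accessory proteins of the pump were tested and 0 were called, with both log2 fold changes above 0 by size factors and below 0 with TPM as deposited. Atp6ap2, the prorenin receptor, which binds V0 during assembly, measured 25.6, 22.4 and 22.4 scaled TPM in WT and 29.6, 27.9 and 27.7 in Npc1-/- libraries, without overlap (0.27 ± 0.09, adjusted p = 0.14, limma). Atp6ap1, or Ac45, also an assembly factor, differed less, with 79.6 ± 5.22 and 85.6 ± 2.48 scaled TPM and a log2 fold change of 0.11 ± 0.09. Atp6ap1, Atp6ap2 and Lamp2 lie on the X chromosome. Npc1-/- replicate 3 listed Xist, the RNA of X inactivation, at 15.6 TPM and every other library at no more than 0.01. In that library Atp6ap1 (88.3 scaled TPM) and Lamp2 (68.2) were higher than in any other, where the next values were 85.2 and 65.7. Atp6ap2 (27.7) was not highest there. Of the 33 tested members, 9 were highest in that library, with autosomal genes such as Lamp1 and Atp6v1g1 among them. An effect of sex on the members was not tested.

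The membrane glycoproteins and the tetraspanin were all tested, 4 of 4, and 0 were called, with log2 fold changes of 0.15 to 0.59 by size factors. Cd63, a tetraspanin of late endosomes and exosomes, had the largest difference of any member. It lies at chr10:128900989-128912822 on the forward strand, and no other gene overlaps its exons. It measured 89.3, 71.6 and 73.7 scaled TPM in WT and 124, 120.1 and 109.8 in Npc1-/- libraries, so the lowest Npc1-/- library was well above the highest WT library. The log2 fold change was 0.59 ± 0.11, a 1.51-fold difference, with a 95% interval of 0.33 to 0.86 and an adjusted p of 0.0557 (limma). With TPM as deposited it was 0.22, the 1 member still above 0, but the groups overlapped (adjusted p = 0.498, limma). With genes of at least 5 TPM on average it passed the threshold (adjusted p = 0.0418, limma), as it did with the replicate block (adjusted p = 0.0179, limma). It did not pass with no filter (adjusted p = 0.124, limma) or by quantile normalization (0.49, adjusted p = 0.11, limma). Leaving out 1 library gave 0.53 to 0.69, with an adjusted p of 0.202 without Npc1-/- replicate 2 (limma).

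Lamp1 and Lamp2 encode the glycoproteins that line the lysosomal membrane. Lamp1, at chr8:13159161-13175338 on the forward strand, measured 463, 503 and 511 scaled TPM in WT and 547, 619 and 645.5 in Npc1-/- libraries, without overlap (0.29 ± 0.11, adjusted p = 0.19, limma). Part of its exons, 249 bases, overlaps Grtp1 on the other strand. By quantile normalization the log2 fold change of Lamp1 turned to -0.06, and with TPM as deposited it was -0.08. With the replicate block Lamp1 was called (adjusted p = 0.0382, limma). Lamp2 had 57.3 ± 3.09 in WT and 64.4 ± 4.55 scaled TPM in Npc1-/- libraries (0.17 ± 0.09), and Scarb2, or LIMP-2, the receptor that brings glucocerebrosidase to lysosomes, had 71.0 ± 4.06 and 79.0 ± 8.65 (0.15 ± 0.11). The groups overlapped in both, and by quantile normalization Lamp2 was at 0.08 and Scarb2 at 0.05.

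The 6 ion channels and exchangers were mixed, with 4 log2 fold changes above 0 and 2 below by size factors, all below 0 with TPM as deposited, and 0 called. The TPC channels release sodium and calcium from endosomes and lysosomes, and both stood below 0. Tpcn1, at chr5:120534153-120588673 on the reverse strand, measured 15.0, 11.4 and 10.4 scaled TPM in WT and 9.70, 9.07 and 9.63 in Npc1-/- libraries. The groups did not overlap, but WT replicate 1 alone lay far above, and the log2 fold change was -0.34 ± 0.14 (adjusted p = 0.22, limma) and -0.19 without WT replicate 1. Tpcn2 was low in both genotypes, with 1.56 ± 0.353 and 1.36 ± 0.332 scaled TPM (-0.15 ± 0.20).

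Mcoln1 encodes TRPML1, the calcium-releasing channel that, like NPC1, is lost in a lysosomal storage disease. It measured 31.8, 34.9 and 38.1 scaled TPM in WT and 34.6, 49.5 and 48.7 in Npc1-/- libraries. Of these, 2 Npc1-/- libraries were above all WT libraries and 1 lay among them (0.32 ± 0.15, adjusted p = 0.27, limma, and 0.49 without that library, replicate 1). Clcn7, the chloride-proton exchanger CLC-7, and its partner Ostm1 were higher in every Npc1-/- than in every WT library by small amounts, with means of 7.26 and 8.35 scaled TPM for Clcn7 (0.19 ± 0.10) and 15.3 and 16.9 for Ostm1 (0.14 ± 0.08). The exons of Ostm1 share 410 bases with Gm15200 on the other strand. Tmem175, a potassium and proton channel, was at 0.12 ± 0.14 with overlapping groups, and 2090 bases of its exons overlap Dgkq on the other strand, so its value is uncertain.

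The transporters and CLN proteins were low and overlapped between genotypes in 4 of 4. Cln3, mutated in juvenile neuronal ceroid lipofuscinosis, measured 6.45, 8.45 and 7.39 scaled TPM in WT and 8.56, 11.2 and 8.37 in Npc1-/- libraries (0.31 ± 0.15, adjusted p = 0.28, limma), with 442 exonic bases shared with Apobr on the other strand. Mfsd8, mutated in another form of that disease, spread from 3.51 to 5.57 in WT and from 4.03 to 7.75 scaled TPM in Npc1-/- libraries, the widest interval of all members (0.28 ± 0.25). Its log2 fold change was 0.04 without Npc1-/- replicate 1, 0.12 without WT replicate 3 and 0.47 without Npc1-/- replicate 3, and that of Cln3 was 0.19 without Npc1-/- replicate 2. Ctns, the cystine exporter lost in cystinosis, was at 0.11 ± 0.10, and Slc17a5, the sialic acid exporter sialin, at 0.07 ± 0.12. All 4 were below 0 with TPM as deposited.

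The 8 members left untested were at or near 0. Atp6v1b1, Atp6v1c2, Atp6v1g3, Atp6v0a4 and Atp6v0d2 are forms of the subunits known from kidney, epididymis or bone, Atp6v1e2 is a testis form, Atp6v1fnb is a neighbour of Atp6v1f that is no subunit, and Atp6v0c-ps1 is a second processed pseudogene of Atp6v0c. Their highest value in any library was 0.38 TPM, and Atp6v1g3 and Atp6v1fnb were listed at 0 in all 6. Apart from subunits a, e and G, 1 gene per subunit was tested. No statement on genotype was made for these 8.

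Genes outside the members that assemble or regulate the pump were tested as a list of their own. Of 20 such genes 18 were tested, 0 were called, and the median log2 fold change was 0.06 by size factors and -0.31 with TPM as deposited. Rnasek, which encodes a small V-ATPase-associated membrane protein, had the smallest p (219 ± 16.8 and 267 ± 9.10 scaled TPM, 0.29 ± 0.10, adjusted p = 0.14, limma). The E-box binding factors Tfeb (-0.10 ± 0.10), Tfe3 (-0.01 ± 0.09) and Mitf (-0.02 ± 0.10) had overlapping groups. These are RNA levels, and the activity of the proteins was not measured. Of 45 other genes for lysosomal membrane proteins, 43 were tested and 1 was called, Npc1 itself, and the median was 0.09 by size factors and -0.25 with TPM as deposited. The next smallest p on the higher side were those of Tmem63a, a mechanosensitive cation channel (0.59 ± 0.11, adjusted p = 0.0567), Abca2, a lipid transporter abundant in oligodendrocytes (0.49 ± 0.11, adjusted p = 0.0687), and Slc48a1, a heme transporter (0.41 ± 0.10, adjusted p = 0.0789), all in limma. On the lower side they were Laptm5, known from leukocytes and microglia (-0.80 ± 0.22, adjusted p = 0.0956), Slc36a1, a proton-coupled amino acid transporter (-0.30 ± 0.11), and Cyb561a3, a cytochrome b561 reductase (-0.29 ± 0.11), in limma. The lower value of Laptm5 stood beside the 13 of 14 microglia and macrophage markers that were lower, and their part in it was not tested.

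The precision sets how firmly the absence of calls can be read. The 95% interval of the log2 fold change reached 0.19 to 0.58 to either side of the estimate, with a median of 0.25, and it included 0 in 25 of 33 members. In 21 members the whole interval lay within 0.5 log2 units of 0. A difference of the size of the members' median, 0.17, is smaller than that median reach, and was not detectable for a single gene with 3 libraries a group.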

How the data were processed

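RNA-seq was performed on O4-purified cells of 3 WT and 3 Npc1-/- mice at P16. Per the labels the libraries were made from poly(A) RNA and read as paired ends. The study's methods name bbduk, STAR and featureCounts, and the submitters' processing notes name cutadapt 2.3, STAR 2.7.8a and RSEM 1.3.3 with GRCm38. The annotation release and the use of strand are not given in the sources used here. The authors deposited TPM, scaled to the same total in each library, and FPKM, per kilobase and scaled to library size, both with 2 decimals. No counts were used, so depth was estimated from steps between low FPKM values.

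Groups were taken from the sample labels. TPM were divided by median-of-ratios size factors over 18690 genes. Genes with a mean of at least 0.5 TPM were fitted as log2(TPM / size factor + 0.5) with limma 3.58.1 in R 4.3.3, with genotype as the only term and a trended prior. Fold changes on this log2(value + pseudocount) scale understate the change of low genes. Genes were called at a two-sided Benjamini-Hochberg adjusted p below 0.05 over all tested genes and a log2 fold change of 0.1 or more in either direction. The fit was tested on simulated data. Shares were compared by exact permutation over 20 arrangements. Gene positions come from GENCODE M21, which held all 41 members, and promoters from RefSeq. Alternatives were FPKM, other scalings, pseudocounts, filters, a length curve, a replicate block and leaving out each library.

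Values in every library are given for called members, the 3 largest rises and falls without overlap, the 3 highest WT levels and paralogs of a tested share, and some others were added after their values were seen. Pathway genes named are those called and, in each direction, those with the smallest p, with the E-box factors added. The members and lists were chosen with earlier results of these data known.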

Additional observations from a re-analysis of the deposited data

How the results depend on the processing

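The count of called members stayed at 0 in every alternative but a filter at a mean of 5 TPM, which called 1 (Cd63), and the replicate block, which called 5 (Atp6v0b, Atp6v0c, Atp6v1f, Cd63 and Lamp1). Pathway genes outside the members went from 1 called to 2 with TPM as deposited (Npc1 and Laptm5), to 2 with the filter at 5 TPM (Npc1 and Tmem63a) and to 6 with the replicate block. All genes called went from 124 to 924 with TPM as deposited, 21 with no filter, 447 with the filter at 5 TPM, 42 in limma without trend, 2011 with the replicate block and 225 with quantile normalization, which was chosen after the data had been seen. Leaving out each library in turn moved this count to between 5 (without Npc1-/- replicate 2) and 477 (without Npc1-/- replicate 3), and each of the 6 libraries moved it by over 1.5 times. It was 20, 13 and 8 without WT replicates 1, 2 and 3, and 19 without Npc1-/- replicate 1. Replicate numbers occur in both groups, but the labels do not say that they mark a litter or a day. The deviations of same-numbered libraries correlated at 0.41, 0.06 and 0.33, so the pairing was not taken as established, although each library correlated best with its own number. The causes of these moves were not tested.

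The median log2 fold change of the members was 0.168, and it became -0.203 with TPM as deposited, 0.15 with no filter, 0.182 with the filter at 5 TPM, 0.152 with the length curve, 0.11 with quantile normalization and 0.146 to 0.18 when 1 library was left out. With TPM as deposited 28 of the 33 members turned below 0, which goes with a median of all genes of -0.33: Atp6v1a -0.35, Atp6v0e -0.33, Slc17a5 -0.27, Atp6ap1 -0.26, Atp6v0c-ps2 -0.25, Atp6v1e1 -0.23, Ctns -0.23, Tmem175 -0.22, Scarb2 -0.22, Atp6v1b2 -0.22, Ostm1 -0.22, Atp6v0d1 -0.21, Lamp2 -0.20, Atp6v0a1 -0.18, Atp6v1d -0.18, Atp6v0e2 -0.17, Clcn7 -0.16, Atp6v1g1 -0.12, Atp6ap2 -0.10, Atp6v1c1 -0.09, Atp6v0c -0.09, Lamp1 -0.08, Mfsd8 -0.06, Mcoln1 -0.05, Atp6v1g2 -0.04, Atp6v1f -0.04, Cln3 -0.04 and Atp6v0b -0.01. Quantile normalization turned Lamp1 to -0.06, Atp6v0e to -0.05, Atp6v1a to -0.02 and Atp6ap1 to -0.01, and the length curve turned Atp6v1h to 0.01 and Atp6v0c-ps2 to -0.19. Leaving out 1 library gave -0.06 to 0.15 for Atp6v0e, -0.01 to 0.12 for Slc17a5 and -0.02 to 0.06 for Atp6v1a. Without 1 library the difference in the share of Atp6v1g2 ran from -0.82 to 1.89 percentage points. The other alternatives kept the direction of every member they tested. FPKM in place of TPM moved none of the 40 results. FPKM and TPM of a library differ by a constant factor that size factors and shares remove, so this is no independent check.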
